A study of Homo sapiens with 4 samples.

Results

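Signal on 6 genes of the cilium was read from FLASH-seq libraries of RPE1 cells, an immortalised line derived from human retinal pigment epithelium. The genes were DYNC2H1, IFT81 and IFT43 of intraflagellar transport, and the cilia- and flagella-associated genes CFAP54, CFAP299 (listed as C4orf22) and CFAP251 (listed as WDR66). They were chosen by name, with earlier results of these data known, and all 6 were found among the 9667 genes of the deposited tables. FLASH-seq reads the RNA that a protein contacts in cells. Ultraviolet light forms crosslinks between protein and RNA, the protein is captured by its biotin tag on streptavidin, RNase I shortens the RNA, and what stays bound is sequenced. All 4 libraries came from RPE1 iCas9 p53/puro-dKO cells in which CFAP20 was also knocked out. The CFAP20-KO group (2 libraries) carried no tagged protein and was the negative control, and the tagged-CFAP20 group (2 libraries) was the same knockout expressing FLASH-BIO-CFAP20. The series asks whether CFAP20, a protein of the ciliary microtubules, binds RNA. The labels do not say whether replicates were separate cultures, how many clones were used or how strongly the tagged protein was expressed, so p-values measure only how far these libraries differ from each other, which may be technical.

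Cilia are built and maintained by intraflagellar transport, in which trains of IFT proteins carry cargo along the ciliary microtubules. Kinesin-2 moves the trains to the tip, and the dynein-2 motor brings them back. DYNC2H1 is the heavy chain of dynein-2. IFT81 belongs to the IFT-B complex, where together with IFT74 it forms a tubulin-binding module, and IFT43 is a subunit of the IFT-A complex, which serves return transport. CFAP54 is a component of the central apparatus of motile axonemes, CFAP251 is a component of the radial spoke and calmodulin-associated complex of axonemes, and CFAP299 is a less well described protein named for cilia and flagella. RPE1 cells can form a primary cilium, an immotile one without a central apparatus, when they stop dividing. All 6 genes were measured here as RNA in the pull-down, not as proteins of the cilium.

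Depth and scale bear on every result. Signal in each library came in whole steps, taken here as 1 read overlapping a 200-base bin, and a signal divided by its step is called a number of read overlaps. The libraries differed strongly in depth: over all genes there were 9146 and 3908 overlaps in CFAP20-KO replicates 1 and 2, against 165189 and 134891 in tagged-CFAP20 replicates 1 and 2. A single overlap was therefore worth a signal of 83.0 and 276.88 in CFAP20-KO, but 12.9 and 13.9 in tagged-CFAP20. A signal of 3 reads, the limit that a count of 0 allows, was 342 and 1142 in CFAP20-KO and of 53.0 and 57.5 in tagged-CFAP20. Such limits, and the intervals below, cover counting error only. Summed over all genes, the deposited signal was 2001350 ± 172355 in tagged-CFAP20 and 920583 ± 228345 in CFAP20-KO (SD, n = 2 each). CFAP20 itself, seen through the window of its neighbour MMP15, held 36 and 38 overlaps on its coding bins in tagged-CFAP20 and 0 in each CFAP20-KO library. Of the 6 markers of cultured RPE1 cells in the tables, 5 were above 0 in all 4 libraries, among them CCN1, COL1A1, LOX and TGFBI, and COL1A2 was at 0 in all 4. Of the retinal pigment epithelium markers, OTX2 held 60 overlaps and RPE65 held 6 over both tagged-CFAP20 libraries, and RGR and TTR were at 0 throughout. Markers of multiciliated cells held 3 and 0 overlaps in CFAP20-KO and 8 and 12 in tagged-CFAP20 over 6 genes. MCIDAS held most of those in tagged-CFAP20, 5 and 8, with 3 and 2 on CDHR3 and 0 and 2 on TEKT1. Those in CFAP20-KO were on CDHR3 and PIFO, and SNTN and GMNC were at 0 in all 4 libraries. Blood and liver markers held 1 overlap each in total, and neuron markers held 28, all in tagged-CFAP20 and 26 of them on SNAP25.

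The sequences of bins with most tagged-CFAP20 reads are given to show dense single places, some of them tied with others. They do not show the bulk of the reads, which lay in introns in CFAP54, CFAP299, CFAP251 and IFT43. For 5 of the genes, the bin with most overlaps over both tagged-CFAP20 libraries is printed, among bins outside untranslated exons and the first bases of the gene, and bins covered in both libraries were preferred. Sequences are from the hg38 genome, plus strand, which is the sense strand of all 6 genes, and capitals mark exon bases of protein-coding transcripts in GENCODE 44.
DYNC2H1: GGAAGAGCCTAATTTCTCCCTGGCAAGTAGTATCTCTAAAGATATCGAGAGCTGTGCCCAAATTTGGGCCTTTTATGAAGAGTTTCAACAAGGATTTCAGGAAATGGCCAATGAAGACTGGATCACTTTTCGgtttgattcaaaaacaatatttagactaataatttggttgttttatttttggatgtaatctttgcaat
CFAP299: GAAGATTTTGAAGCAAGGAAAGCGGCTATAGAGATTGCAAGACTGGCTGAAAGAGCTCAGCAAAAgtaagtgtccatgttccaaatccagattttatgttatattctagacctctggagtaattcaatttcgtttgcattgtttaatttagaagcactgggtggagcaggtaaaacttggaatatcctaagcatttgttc
CFAP54: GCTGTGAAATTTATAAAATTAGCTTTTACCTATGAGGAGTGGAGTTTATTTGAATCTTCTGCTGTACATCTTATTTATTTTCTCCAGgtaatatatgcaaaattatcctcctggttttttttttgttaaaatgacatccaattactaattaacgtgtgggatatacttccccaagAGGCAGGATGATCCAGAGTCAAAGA
CFAP251: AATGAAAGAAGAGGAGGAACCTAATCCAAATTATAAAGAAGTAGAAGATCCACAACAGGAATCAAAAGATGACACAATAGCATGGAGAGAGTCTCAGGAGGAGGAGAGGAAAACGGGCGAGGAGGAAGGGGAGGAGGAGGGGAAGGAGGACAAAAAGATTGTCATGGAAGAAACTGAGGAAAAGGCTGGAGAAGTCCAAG
IFT43: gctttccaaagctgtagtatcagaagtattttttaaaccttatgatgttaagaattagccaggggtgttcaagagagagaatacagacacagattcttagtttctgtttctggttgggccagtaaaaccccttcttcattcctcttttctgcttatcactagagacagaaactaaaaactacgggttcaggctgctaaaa
The DYNC2H1 bin (chr11:103154475-103154674, 45.0 kb from the gene start) held 3 and 7 overlaps in tagged-CFAP20 replicates 1 and 2. The CFAP299 bin (chr4:80362820-80363019, 27.2 kb) held 3 and 2, and the CFAP54 bin (chr12:96533887-96534086, 44.4 kb) held 2 and 2. Each of these 3 bins held coding exon bases next to an intron boundary: 132 coding bases in DYNC2H1, 65 in CFAP299 and 112 in CFAP54. The CFAP251 bin (chr12:121921362-121921561, 3.6 kb) lay wholly in a coding exon and held 1 and 1. It was 1 of 6 bins of that gene covered in both libraries. The gene ENSG00000256950, on the same strand, runs to base 121921470 and so into this bin. Reads of the 2 genes cannot be told apart there. Only the IFT43 bin (chr14:76023853-76024052, 38.2 kb), with 1 and 2 overlaps, lay wholly in an intron. None of these 5 bins had an overlap in CFAP20-KO.

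The comparison of tagged-CFAP20 with CFAP20-KO asked whether these RNAs were recovered beyond what the beads hold when no tagged protein is present. On the deposited scale, mean signal was higher with the tagged protein for 5 of the 6 genes and lower for IFT43, but none of the 6 differences passed the test across all genes. In limma on log2(signal + 10), 0 of 6 members had an adjusted p under 0.05, and 0 of 6 an unadjusted one. Over all 4461 genes tested, 37.6% passed as higher and 0.0672% as lower. Among the 1678 genes passing as higher, 1589 had no overlap in either control library, a state that none of the 6 members had. Groups did not overlap for 5 members, of which DYNC2H1, IFT81, CFAP299 and CFAP251 were higher with the tagged protein, as were 69.4% of all genes tested, and IFT43 was lower, as were 1.91%. With 2 libraries in a group, a two-sided exact permutation test has 6 assignments and cannot go below 0.333.

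**Figure D1:**
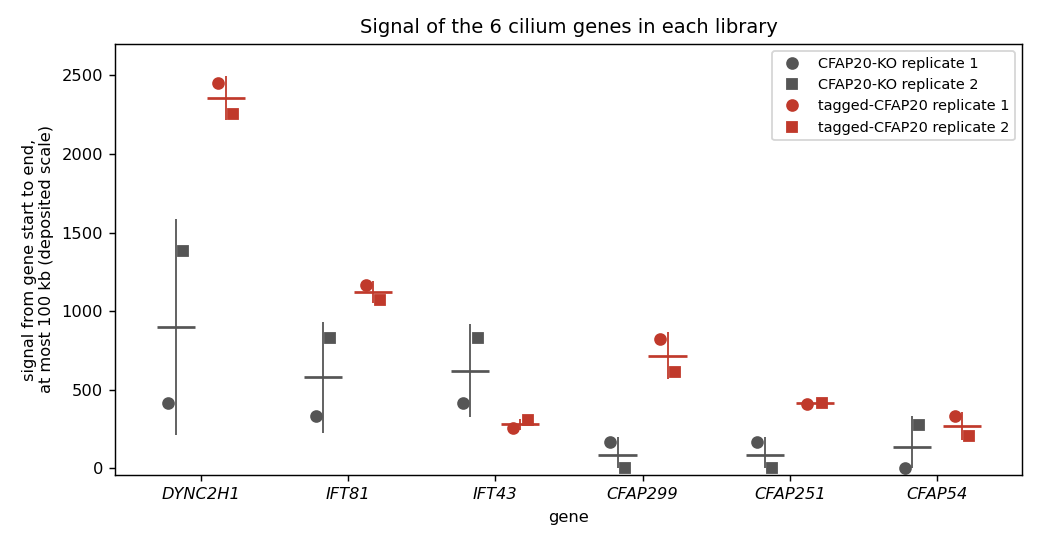
Signal from the gene start to its end, at most 100 kb, on the deposited scale (vertical axis) for each gene (horizontal axis) and library; horizontal bars are group means and vertical bars 1 SD (n = 2), cut at 0. The tagged-CFAP20 points lie above both CFAP20-KO points for DYNC2H1, IFT81, CFAP299 and CFAP251, below them for IFT43, and on both sides of one for CFAP54.

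DYNC2H1, the dynein-2 heavy chain, had the most signal of the 6. Its first 100 kb, 27.1% of a gene of 370 kb, held 5 and 5 overlaps in CFAP20-KO replicates 1 and 2, a signal of 415 and 1384, against 191 and 162 overlaps in tagged-CFAP20, a signal of 2455 and 2257. Both tagged-CFAP20 libraries were higher than both CFAP20-KO libraries. The CFAP20-KO libraries differed by more than 3-fold in signal at the same number of overlaps, because 1 overlap is worth more in replicate 2. The log2 change was 1.62 (SE 0.70, limma adjusted p = 0.188). Pooled over the libraries of a group and scaled for depth, the ratio was 3.70, with a 95% counting interval of 1.79 to 9.09. As a share of the overlaps on all genes the ratio was 1.54 (0.744 to 3.78), an interval that includes 1. The log2 change was 0.50 with each library scaled to the same window total, 0.76 without CFAP20-KO replicate 1 and 2.48 without CFAP20-KO replicate 2.

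IFT81, an IFT-B subunit, held 4 and 3 overlaps in CFAP20-KO, a signal of 332 and 830.6, and 91 and 77 in tagged-CFAP20, a signal of 1170 and 1073. The groups did not overlap, and the log2 change was 1.08 (SE 0.61, limma adjusted p = 0.285). With each library scaled to the same total over all windows the log2 change was -0.036, so the higher level of IFT81 is not seen on that scale. The pooled ratio was 2.51 (95% counting interval 1.06 to 7.78).

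IFT43, an IFT-A subunit, was the only member with more signal in the control. It held 5 and 3 overlaps in CFAP20-KO, a signal of 415 and 830.6, and 20 and 22 in tagged-CFAP20, a signal of 257 and 307. Both tagged-CFAP20 libraries were lower than both CFAP20-KO libraries on this scale. The log2 change was -1.04 (SE 0.67, limma adjusted p = 0.331), and the pooled ratio was 0.550 (95% counting interval 0.223 to 1.64). Measured as a share of the overlaps on all genes, IFT43 had 0.0657% ± 0.0156 in CFAP20-KO and 0.0142% ± 0.00297 in tagged-CFAP20 (SD, n = 2 each). The ratio of pooled shares was 0.228, with a counting interval of 0.0927 to 0.683 that lies below 1. At the share seen with the tagged protein, 1.83 overlaps would be expected in both CFAP20-KO libraries together, where 8 were seen. The exact permutation p of the shares was 0.333, the smallest this design allows.

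The 3 CFAP genes had 0 to 2 overlaps in any CFAP20-KO library, so that their change is poorly bounded. CFAP299 held 2 and 0 overlaps in CFAP20-KO, a signal of 166 and 0, and 64 and 44 in tagged-CFAP20, a signal of 822.6 and 613.1. Its log2 change of 4.10 (SE 1.76, limma adjusted p = 0.186) was the largest of the 6 with all 4 libraries, and its pooled ratio was 5.65 (95% counting interval 1.26 to 85.1). As a share the ratio of CFAP299 was 2.35 (0.522 to 35.4), an interval that includes 1. Its log2 change was 6.17 without CFAP20-KO replicate 1 and 2.03 without CFAP20-KO replicate 2, where that of CFAP54, 4.78, was larger. CFAP251 held 2 and 0 overlaps in CFAP20-KO, a signal of 166 and 0, and 32 and 30 in tagged-CFAP20, a signal of 411 and 418. The groups did not overlap for either gene, although a 0 in CFAP20-KO replicate 2 can hide a signal of up to 1142. For CFAP251 the log2 change was 3.34 (SE 1.74, limma adjusted p = 0.253) and the pooled ratio 3.25 (0.705 to 49.4). CFAP54, of the central apparatus, held 0 and 1 overlaps in CFAP20-KO, a signal of 0 and 277, and 26 and 15 in tagged-CFAP20, a signal of 334 and 209. Its groups overlapped, since the single overlap of CFAP20-KO replicate 2 was worth more than the 15 of tagged-CFAP20 replicate 2. The log2 change of CFAP54 was 2.36 (SE 2.004, limma adjusted p = 0.436) and was -0.063 without CFAP20-KO replicate 1, and the pooled ratio was 4.29 (0.570 to 578.2).

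Summed together, the 6 genes differed between the groups about as much as all genes did. Their summed signal was 5163 ± 405 in tagged-CFAP20 and 2408 ± 1293 in CFAP20-KO (SD, n = 2 each). The ratio of means was 2.14, where all genes gave 2.17. Their pooled ratio was 2.70 (95% counting interval 1.76 to 4.35), against 2.41 for all genes. As a share of the overlaps on all genes they took 0.197% and 0.307% in CFAP20-KO and 0.257% and 0.259% in tagged-CFAP20, and the tagged-CFAP20 values lay between the control values. The ratio of shares was 1.12 (0.733 to 1.81). For the 3 transport genes it was 0.980 (0.613 to 1.66), and for the 3 CFAP genes 1.84 (0.674 to 7.43). The intervals of all 3 ratios include 1, and that of the CFAP genes also reaches large increases.

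**Figure D2:**
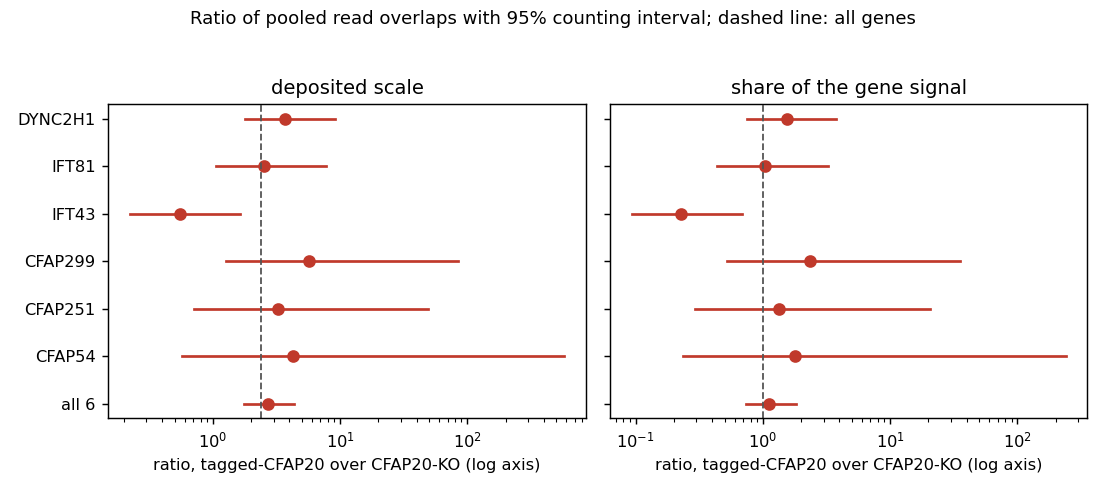
Ratio of pooled read overlaps, tagged-CFAP20 over CFAP20-KO, on a log axis with its 95% counting interval, for each gene and for all 6, on the deposited scale (left) and as a share of the gene signal (right). The dashed line is the value for all genes, 2.41 on the left and 1 by construction on the right; the IFT43 interval is the only one that lies wholly below the line.

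The changes of the members depended on the control libraries. Without CFAP20-KO replicate 1, the log2 change was 6.17 for CFAP299, 5.41 for CFAP251 and 0.76 for DYNC2H1. It was 0.43 for IFT81, -0.063 for CFAP54 and -1.53 for IFT43. Without CFAP20-KO replicate 2, it was 4.78 for CFAP54, 2.48 for DYNC2H1 and 2.03 for CFAP299. It was 1.72 for IFT81, 1.27 for CFAP251 and -0.55 for IFT43. The median over all genes tested was 2.31 and 1.82 in these 2 fits. Both fits rest on 1 control library, which is assumed to vary like the tagged-CFAP20 libraries, so no call of a member is read from them. Without either tagged-CFAP20 library, 1 library was left in that group, and genes at 0 in both controls were not tested. No call is read from those fits either.

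Within tagged-CFAP20, signal per kilobase of gene differed between members. DYNC2H1 stood at 23.6 ± 1.40 signal per kb, IFT81 at 11.9 ± 0.725, CFAP299 at 7.18 ± 1.48, CFAP251 at 4.82 ± 0.0550, IFT43 at 2.88 ± 0.357 and CFAP54 at 2.72 ± 0.885 (SD, n = 2 each). The libraries of neighbouring genes in this order did not overlap, except those of IFT43 and CFAP54, which did not differ beyond their spread. In CFAP20-KO the order was another, with DYNC2H1 at 8.997 ± 6.85, IFT43 at 6.36 ± 3.00, IFT81 at 6.16 ± 3.73, CFAP54 at 1.38 ± 1.96, CFAP251 at 0.964 ± 1.36 and CFAP299 at 0.830 ± 1.17 signal per kb. The transport genes were covered in both control libraries and overlapped one another there. Among genes with signal in the same library, DYNC2H1 stood at the 97.5th and 97.7th percentile of gene signal in tagged-CFAP20, IFT81 at the 91.7th in both, and IFT43 at the 61.4th and 67.1st.

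The tagged-CFAP20 reads were spread unevenly along each gene. In CFAP54 no overlap fell between 70 and 90 kb, and in CFAP251 1 fell between 60 and 70 kb. Per 10 kb, DYNC2H1 held between 11 and 68 overlaps over both tagged-CFAP20 libraries, with the 68 between 40 and 50 kb. IFT81 held 52 in its first 10 kb and 28 in the next, then 4 to 27. CFAP299 held 31 of its 108 overlaps (28.7%) in the first 10 kb, IFT81 52 of 168 (31.0%), CFAP251 19.4%, IFT43 19.0%, CFAP54 17.1% and DYNC2H1 13.3%, where the first 10 kb made up 9.98% to 11.6% of the bins. In the 5 kb before the gene start, DYNC2H1, IFT81 and CFAP54 held 0 overlaps in all 4 libraries. Before CFAP251, where PSMD9 and ENSG00000256950 lie, tagged-CFAP20 held 6 and 1 overlaps. Before IFT43 it held 2 and 0, and before CFAP299, where FGF5 lies, 0 and 1. No other annotated gene overlaps the 3 genes without upstream overlaps. For IFT43, the 5 kb before the start used here (75985753) lie within the gene as annotated, which starts at 75902136. The only other annotated gene over IFT43, a pseudogene, starts at 76013679, downstream of the start used. The upstream overlaps of IFT43 are therefore not in that pseudogene.

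The kilobases with most reads in the deeper covered genes held exon bins. In DYNC2H1 the kilobase with most reads, at 82 to 83 kb, held 12 and 12 overlaps in tagged-CFAP20 replicates 1 and 2, and the next, at 45 to 46 kb, held 8 and 11. In IFT81, 7 and 12 overlaps fell at 81 to 82 kb and 8 and 8 at 3 to 4 kb. All 4 of these kilobases held 2 or 3 exon bins and had 0 overlaps in both control libraries. Their overlaps are not split here between exon and intron bins. The densest kilobase of CFAP54, at 44 to 45 kb, held 7 and 4 overlaps and 3 exon bins. In CFAP299, by contrast, 9 and 2 overlaps fell at 6 to 7 kb, inside its first intron. In IFT43 the kilobase with most reads, at 28 to 29 kb, held 0 and 5 overlaps, 3 of them in bins that hold the processed pseudogene ENSG00000258578.

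**Figure D3:**
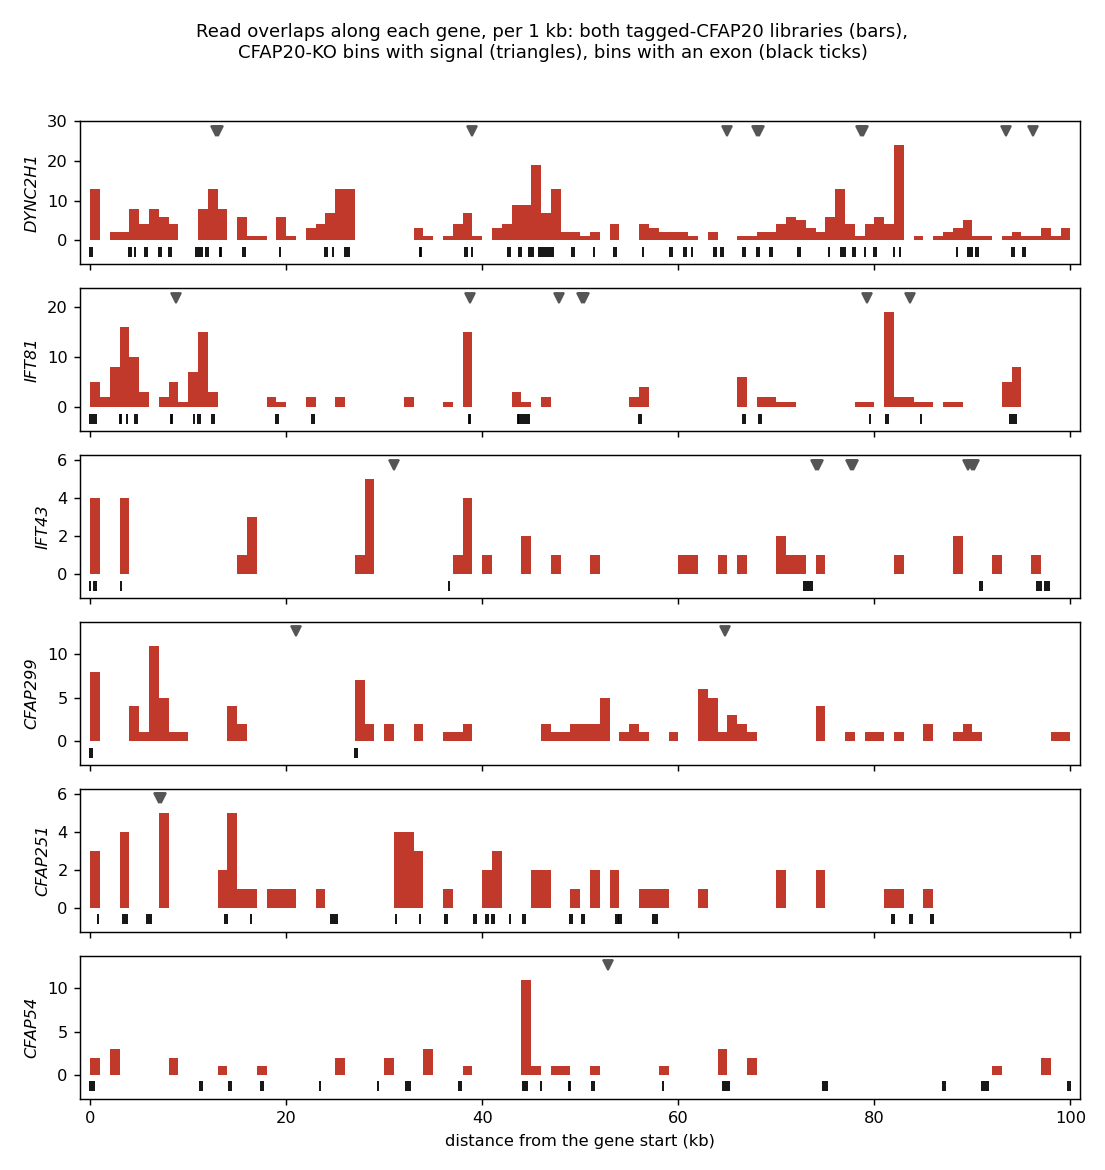
Read overlaps per 1 kb (vertical axis) against distance from the gene start in kb for each gene, summed over both tagged-CFAP20 libraries (bars), with bins that held CFAP20-KO signal (triangles) and bins that hold an exon (black ticks). Clusters of tagged-CFAP20 overlaps stand over exon ticks in DYNC2H1 (82 to 83 kb) and IFT81 (81 to 82 kb), while in CFAP299 reads lie between them.

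The 2 tagged-CFAP20 libraries shared much of this profile in the deeper covered genes. Of the 121 and 102 bins of DYNC2H1 with signal in tagged-CFAP20 replicates 1 and 2, 47 were shared, which is 38.8% and 46.1% of each. IFT81 shared 23 of 62 and 40 bins (37.1% and 57.5%), and IFT43 2 of 19 and 21 (10.5% and 9.52%). Over segments of 10 kb, Pearson's r between the libraries was 0.890 for IFT81, 0.800 for DYNC2H1, 0.724 for CFAP54, 0.709 for CFAP299, 0.637 for CFAP251 and -0.533 for IFT43. These coefficients describe 9 or 10 segments of 1 gene, which share libraries and base composition. Only IFT43, with 20 and 22 overlaps, had no common profile.

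Exon-holding bins took 45.6% of the tagged-CFAP20 overlaps of the 6 genes (353 overlaps), although they were 8.32% of the bins. The share was 44.6% and 46.9% in the 2 libraries. An exon bin held on average 9.43-fold as many overlaps as an intron bin. In the controls 4 of 18 overlaps of replicate 1 fell in exon bins and 0 of 12 of replicate 2, which allows a share of up to 34.4%; pooled, this was 13.3% (95% exact Clopper-Pearson interval 2.74% to 34.7%). The difference between the group means, 34.6 percentage points, gave an exact two-sided permutation p of 0.333, the smallest the design allows. Over all genes tested, the exon share was 37.5% and 38.5% in CFAP20-KO and 44.6% and 44.8% in tagged-CFAP20, with 12.6% of bins holding an exon. Pooled, the members' exon share in tagged-CFAP20 was close to that of all genes, but DYNC2H1 held 201 and IFT81 103 of the 353 exon overlaps. The share was 36.1% (95% exact interval 30.7% to 41.8%) without DYNC2H1 and 47.4% (43.1% to 51.7%) without IFT43. The control share of the members rests on 30 overlaps.

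Members differed in where their reads lay. Exon bins took 61.3% of the tagged-CFAP20 overlaps of IFT81 (9.09% of its bins) and 56.9% of those of DYNC2H1 (18.4% of its bins). Among genes of at least 50 kb with at least 30 tagged-CFAP20 overlaps, whose median was 30.1%, these shares stood at the 95.8th and 93.5th percentile. The share was 39.0% in CFAP54, 24.2% in CFAP251, 14.3% in IFT43 and 11.1% in CFAP299, of which 4 of 501 bins hold an exon. In IFT81 it was 53.8% and 70.1% in the 2 libraries, and in DYNC2H1 58.1% and 55.6%. In CFAP299 most reads were intronic, yet its 4 exon bins held 12 overlaps, and 8 more fell in bins with exons of the antisense pseudogene ENSG00000232327. Signal is not split by strand, so reads of overlapping genes on either strand cannot be told apart.

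**Figure D4:**
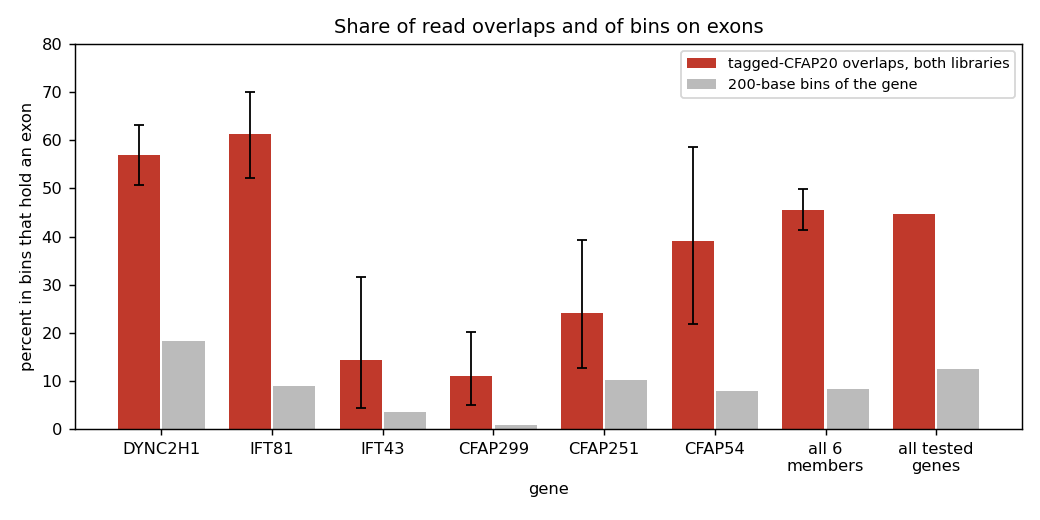
Percent of tagged-CFAP20 read overlaps, both libraries pooled, in bins that hold an exon (red, with 95% exact intervals for the members), beside the percent of the gene's 200-base bins that hold one (grey), for each gene, all 6 members and all tested genes. IFT81 and DYNC2H1 have the highest shares, 61.3% and 56.9%, and CFAP299 the lowest, 11.1%.

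The control reads on these genes were few and mostly intronic. The 30 CFAP20-KO overlaps formed 22 runs of adjoining bins, of which 19 lay in introns and 3 touched an exon, at 39.0 and 68.0 kb in DYNC2H1 and once in IFT81. Of the 22 runs, 10 had tagged-CFAP20 overlaps in the same bins, and 14 had some within 1 kb. In IFT43 the 5 runs lay at 31.0, 74.0 and 77.6 kb in replicate 1 and at 89.6 and 90.0 kb in replicate 2, all intronic and none in the same place in both libraries. Only 1 of these 5 runs had a tagged-CFAP20 overlap in the same bins. The excess of IFT43 in the control therefore rests on 5 scattered runs.

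Base composition was read for bins with and without tagged-CFAP20 signal. Over the 6 genes, the 461 bins with tagged-CFAP20 signal had a median GC content of 36.0%, against 39.5% in the 2436 bins without. DYNC2H1, with a median of 33.5% over all its bins, gave 176 of the former and 325 of the latter. Within genes, covered bins had the lower median in IFT81 (35% against 39.5%), CFAP54 (35% against 38%) and DYNC2H1 (32.5% against 34%). The medians were equal in CFAP251 (47%), and covered bins were higher in CFAP299 (38.5% against 36.25%) and IFT43 (43% against 42.5%). The letters AAAAA and TTTTT were searched on the sense strand alone. Over the 6 genes, AAAAA was in 44.3% of covered and 35.9% of uncovered bins, and TTTTT in 46.0% and 55.3%. CFAP299 showed the widest gap, with TTTTT in 18.1% of 83 covered bins against 51.7% of 418 uncovered ones. It was in 28.3% against 47.9% in CFAP251, in 28.9% against 46.2% in IFT43, and in 65.3% against 62.8% in DYNC2H1. In IFT81, AAAAA was in 55.7% of covered and 38.8% of uncovered bins. In CFAP54 alone it was rarer in covered bins, 21.9% against 38.2%. These shares are descriptions of bins that share genes and exons, and no test was made of them.

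The other genes of the cilium were read from 5 lists, which together had 43 genes tested, the 6 members included. Of these 43, 15 passed as higher in limma (34.9%, where 37.6% of all genes tested did) and 0 as lower, with 1 lower gene at an unadjusted p under 0.05. All but 1, 14 genes, had no overlap in either CFAP20-KO library, and every one of the 14 list genes tested in that state passed, against 1 of the other 29. Over all genes tested, 1589 of 1798 in that state passed as higher, against 89 of the other 2663, so the split is not particular to these lists. For 12 of the 14, the tagged-CFAP20 signal was itself under 263, the signal that 3 reads pooled over both controls would give. Leaving out either tagged-CFAP20 library takes these 14 genes out of the test, since the filter asks for signal in 2 libraries. Whether their calls depend on 1 tagged-CFAP20 library could therefore not be seen.

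Of the intraflagellar transport and dynein-2 list, 5 of 12 genes tested passed as higher and 0 as lower, and 4 of the 5 lay under that limit. The median log2 change was 2.16, and 0.39 with genes at 0 in the control set to their bound, where all genes tested gave 2.10 and 0.32. IFT27, a small GTPase of IFT-B, held 32 and 17 overlaps in tagged-CFAP20 and 0 in both controls, and passed (limma adjusted p = 0.00712). Its mean signal of 324 was 1.23-fold the limit, with replicate 2, at 237, below it. IFT46, TTC26, KIF17 and IFT22 also passed, with 5 to 28 overlaps over both tagged-CFAP20 libraries, all under the limit. DYNC2I1, a dynein-2 intermediate chain, held 7 and 3 overlaps in CFAP20-KO and 109 and 92 in tagged-CFAP20, and did not pass (log2 change 0.94, SE 0.35, adjusted p = 0.142). TRAF3IP1, an IFT-B subunit, held 5 and 5 against 95 and 66 and did not pass (0.47, SE 0.75, adjusted p = 0.662).

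Of the motile cilium and CFAP list, 6 of 12 genes tested passed as higher and 0 as lower. All 6 were at 0 in both controls and under the limit of 3 control reads. They were DNAH7, DNAH6 and DNAH2, which encode axonemal dynein heavy chains, DNAAF4, a dynein assembly factor, RSPH4A, of the radial spoke head, and CFAP221. DNAH7 held 20 and 18 overlaps with the tagged protein, whereas RSPH4A passed on 1 and 1. The median log2 change of the list was 2.06, but -0.64 with genes at 0 in the control set to their bound, a change of sign. DNAH14, another dynein heavy chain, had the most signal, with 4 and 5 overlaps in CFAP20-KO and 178 and 164 in tagged-CFAP20, and did not pass (log2 change 1.73, SE 0.82, adjusted p = 0.218). ODAD1, of the outer dynein arm docking complex, had the lowest ratio named here, with 2 and 2 overlaps in CFAP20-KO and 3 and 1 in tagged-CFAP20, a pooled ratio of 0.105 (95% counting interval 0.0135 to 0.814). It did not pass (adjusted p = 0.0947), but did as lower with libraries scaled to the same window total. DNAAF11 held 0 and 2 overlaps in CFAP20-KO and 32 and 8 in tagged-CFAP20.

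Of the transition zone and basal body list, 3 of 13 genes tested passed as higher and 0 as lower, with a median log2 change of 1.63 (1.59 with bounds). EVC, a ciliary protein of Hedgehog signalling, was the 1 cilium gene that passed with reads in the control. It held 8 and 4 overlaps in CFAP20-KO and 264 and 220 in tagged-CFAP20, a log2 change of 1.90 (SE 0.33, limma adjusted p = 0.0242) and a pooled ratio of 4.22 (95% counting interval 2.18 to 9.45). As a share of all genes the ratio of EVC was 1.75 (0.905 to 3.93). EVC did not pass among genes above 0 in all 4 libraries, after quantile normalization, in limma without trend, or without either tagged-CFAP20 library. KIF7, a ciliary kinesin of the same pathway, held 33 and 31 overlaps against 0, a mean signal 1.62-fold the limit, and TMEM216 passed on 1 and 2. PCM1, a scaffold of centriolar satellites, had the most signal of the list, with 15 and 11 overlaps in CFAP20-KO and 325 and 275 in tagged-CFAP20, and did not pass (adjusted p = 0.232). CEP162 held 5 and 0 against 108 and 81.

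Of the BBSome and ciliary trafficking list, 1 of 4 genes tested passed as higher, BBS10, with 6 and 10 overlaps against 0 in the control and under the limit, and 0 as lower. The median log2 change was 2.66 (0.46 with bounds). TULP3, which brings receptors into the cilium, held 1 and 1 overlaps in CFAP20-KO and 69 and 45 in tagged-CFAP20 (pooled ratio 5.97, 95% counting interval 1.33 to 89.8). BBS2 held 0 and 1 against 42 and 27, and BBS12 held 1 and 1 against 3 and 4. Of the tubulin list, 0 of 3 genes tested passed in limma, and 0 at an unadjusted p under 0.05, with a median log2 change of 3.58. TTLL4, a tubulin glutamylase, held 1 and 0 overlaps in CFAP20-KO and 53 and 32 in tagged-CFAP20, TUBA1A 1 and 0 against 28 and 25, and TUBG1 2 and 0 against 12 and 13. Over all 5 lists, the genes took 0.951% and 1.36% of the overlaps in CFAP20-KO and 1.38% and 1.35% in tagged-CFAP20, so that the groups overlapped. The ratio of pooled shares was 1.27 (95% counting interval 1.05 to 1.57), which covers counting error and not the gap between the control libraries.

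**Figure D5:**
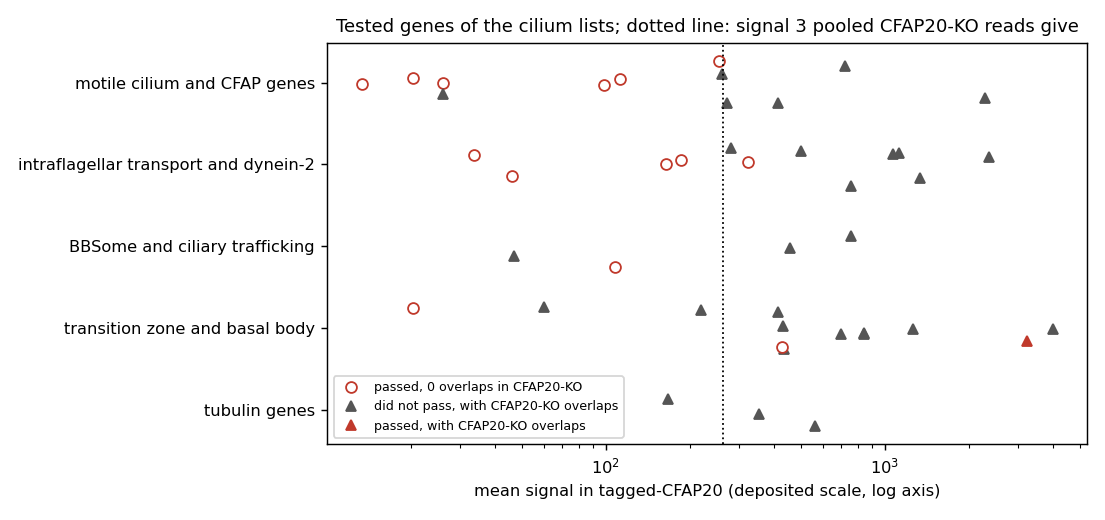
Mean signal in tagged-CFAP20 on the deposited scale (log axis) of each tested gene of the 5 cilium lists, red where it passed as higher and grey where it did not, as open circles for genes at 0 in both CFAP20-KO libraries and triangles for genes with control overlaps. The 14 open circles are all red and 12 lie left of the dotted line at 263, the signal of 3 pooled control reads, while 1 of 29 triangles, EVC, is red.

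Among all genes tested, the level of DYNC2H1 over the 4 libraries was most like those of DNAH14 (Euclidean distance 0.330 in log2 signal) and BTAF1 (0.346). For IFT81 the nearest were XPO7 (0.0788) and MEGF9 (0.0868), which had the same control overlaps, 4 and 3. For IFT43 they were TTC39B (0.432) and NALCN (0.649), with 20 and 20 and 19 and 20 overlaps in tagged-CFAP20. At a few control overlaps, many genes take the same values, so the nearness is a description of 4 libraries.

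The gene models set what was summed. In hg38 the tables start DYNC2H1 at base 103109575 of chromosome 11, IFT81 at 110124335, CFAP251 at 121917862 and CFAP54 at 96489587 of chromosome 12, CFAP299 at 80335720 of chromosome 4 and IFT43 at 75985753 of chromosome 14. IFT81 (94.4 kb), CFAP251 (86.1 kb) and IFT43 (98.0 kb) were summed to their ends, and 25.9% of CFAP54 and 15.9% of CFAP299 lay within the 100 kb used. GENCODE 44 starts IFT43 at 75902136, upstream of the start in the tables, so longer transcripts of IFT43 are covered in part. FGF5 overlaps the first bases of CFAP299, and PSMD9 overlaps those of CFAP251. ENSG00000256950 runs further into CFAP251, to base 121921470, which lies within the printed CFAP251 bin. The first 1 kb held 8 tagged-CFAP20 overlaps in CFAP299 and 3 in CFAP251.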

How the data were processed

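RNA crosslinked to biotin-tagged CFAP20 was measured by FLASH-seq in 4 libraries, grouped by their titles. For each library the authors deposited a signal table, with coverage in 200-bp bins around gene starts, for genes of at least 3 kb with a 2-kb gap, per the table names. Per the submitters' processing notes, UMI-tools 1.0.0, Bowtie2 2.3.5, HOMER 4.8.2, R 4.0.5 and the hg38 build were used, with roles and scaling not given in the sources used here. Columns from 10 kb before to 100 kb after the start were read, and 1 further column matched no sample and was not used. Where a table lacked a gene its signal was taken as 0. Seen through a neighbour, 223 of 223 such cases were at 0 over at most their first 3 kb. The rest of the span summed was not seen.

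Values were whole multiples of a step particular to each library (100% within 0.01). A read spans 1.38 bins on average, so intervals use overlaps divided by that. Overlaps are not whole reads, so no count model was fitted. Sums ran from gene start to end, at most 100 kb. The fit was limma 3.58.1 in R 4.3.3 (trend) on log2(signal + 10) for the 4461 genes above 0 in at least 2 libraries, Benjamini-Hochberg adjusted, threshold 0.05. Tested on simulated data with these depths, it also called unchanged genes higher. Permutation tests and exact intervals used SciPy 1.17.1. Exons came from GENCODE 44 (9478 of 9667 genes matched).

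The members and gene lists were chosen with earlier results of these data known. Named genes are the members, CFAP20, the 3 non-members of each list with most signal and every one that passed, the 2 nearest in level to members with at least 4 control overlaps, and genes overlapping a member. The marker genes named were chosen after their values were seen. A marker gene and the sequence of a bin are not reported here. Alternatives were another pseudocount, filter, scaling, sum, trend or block, and leaving out each library.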

Additional observations from a re-analysis of the deposited data

How the results depend on the processing

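Depth limits these results: 1 control overlap is worth more than a tagged-CFAP20 overlap by over 5-fold, and the normalization behind the deposited scale is not stated. The count of genes higher, 1678, was 1045 with a pseudocount of 1 overlap of the shallowest library, 0 among genes above 0 in all 4 libraries, 0 after quantile normalization, and 0 to 3256 with 1 library left out. Genes lower, 3, numbered 1, 0 and 0 in those 3 settings, 32 with the same window total, and 0 to 418 with 1 library left out. Cilium-list genes higher, 15, numbered 6, 0 and 0 in those settings and 0 to 34 with 1 library left out; lower, 0, they numbered 1 with the same window total (ODAD1) and 0 to 4 with 1 left out. The median log2 change of all genes tested, 2.10, was 1.57 with the same window total and -0.13 after quantile normalization, so changes of single genes are relative to that shift. Members past the threshold, 0, numbered 0 to 5 with 1 library left out and 0 under every other alternative. The sign of CFAP54 turned after quantile normalization (-0.00014) and without CFAP20-KO replicate 1 (-0.063; 4.78 without CFAP20-KO replicate 2), and that of IFT81 with the same window total (-0.036). The log2 ratio of the members' summed signal, 1.10, was 0.035 as a share of the gene signal and 0.046 with the same window total, and their pooled ratio of 2.70 was 1.12 as a share. The exon share of 45.6% was 43.9% without the bin with most signal of each gene and 48.2% with exons of every transcript, the latter chosen after seeing the data. Genes at 0 in both controls cannot be tested among genes above 0 in all 4 libraries, nor without either tagged-CFAP20 library. Counts of 0 in those settings are fixed for such genes by the filter. Where an alternative does not change samples or genes by construction, the cause was not tested.

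The replicate numbers could pair the libraries only as 2 pairs, and libraries with the same number did not deviate together (correlation of deviations 0.00515 over 4461 genes). With the replicate block, 1874 genes were higher and 0 lower, 15 cilium-list genes were higher and 0 members passed.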
